A study of Mus musculus with 10 samples.

Results

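Iron absorption and storage is described here through 10 genes, chosen by name, among the 24062 gene symbols counted in the jejunum of newborn mice. Cybrd1, Slc11a2, Slc40a1 and Heph move iron through the enterocyte, Hamp and Hamp2 encode hepcidins, and Tfrc, Fth1, Ftl1 and Hmox1 serve iron uptake, storage and release from heme inside cells. RNA sequencing compared 5 libraries of WT mice with 5 of KSR23 mice, all C57BL/6 and all at postnatal day 5. The study asked if raised IL-23 and other cytokines in circulation went with changes in intestinal gene expression. KSR23 mice carry the R23 cassette, which encodes both subunits of IL-23 in the ROSA26 locus, switched on by a cre recombinase under the keratin 14 promoter, so that IL-23 is made in keratinocytes. WT mice are wild type by their labels. The cassette encodes the same proteins as Il23a and Il12b, and reads of the transgene cannot be told apart from reads of the endogenous genes.

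Dietary iron is reduced at the brush border by the ferric reductase encoded by Cybrd1, enters the enterocyte through the divalent metal transporter encoded by Slc11a2, and leaves it across the basolateral membrane through ferroportin (Slc40a1) after oxidation by hephaestin (Heph). Hepcidin, a peptide hormone made mostly by the liver, binds ferroportin and sends it for degradation, which lowers iron export into blood. Inside cells, iron regulatory proteins bind hairpins in messenger RNA called iron-responsive elements when iron is scarce. Binding near the start of a message blocks its translation, and binding in the 3′ UTR of Tfrc protects that message from decay.

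The hairpins are shown because iron regulatory proteins act on hairpins of this kind, in either end of a message, and no binding was measured here. Transcripts of the GENCODE mouse M21 annotation (build mm10) were searched for a hairpin with the loop CAGTGN, where the last base is not G, on a stem of 5 pairs, a bulged C below it and a lower stem with at least 4 of 5 bases paired, G-T pairs allowed. Of 21901 protein-coding genes, 24 (0.11%) had a match, and 4 of the 10 genes did, with 7 matches in all. The loop is in capitals in each 27-base match, written 5′ to 3′ on the strand of the gene. The elements of Slc40a1, Fth1 and Ftl1 lie in the 5′ UTR, and the 4 of Tfrc lie in the 3′ UTR.
Slc40a1, chr1:45925466-45925492, minus strand: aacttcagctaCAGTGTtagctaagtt
Fth1, chr19:9982733-9982759, plus strand: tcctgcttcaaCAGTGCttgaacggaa
Ftl1, chr7:45459780-45459806, minus strand: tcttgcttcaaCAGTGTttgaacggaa
Tfrc, chr16:32631220-32631246, plus strand: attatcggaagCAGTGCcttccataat
Tfrc, chr16:32631599-32631625, plus strand: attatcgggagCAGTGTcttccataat
Tfrc, chr16:32631664-32631690, plus strand: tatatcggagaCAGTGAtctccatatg
Tfrc, chr16:32631711-32631737, plus strand: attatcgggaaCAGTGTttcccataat

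A match describes letters only, and a gene without one may still hold an element of another shape. Of the 24 genes with a match, 23 were measured above the filter on low counts, and 3 of them were called higher (Tfrc, and Serpina3c and Serpina3i with means of at most 0.444 CPM) and 1 (Glyat) lower in KSR23. The share called was 17.4%, no more than the 18.5% of all genes tested, and the median log2 fold change of the 23 genes was 0.36. The 3 elements in 5′ UTRs belong to messages whose translation, rather than amount, is the textbook point of control, so the levels below do not report on it.

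Genes took 25.5 to 32.0 M counts per WT library and 31.2 to 60.9 M per KSR23 library, where 1 M is 1000000 counts. Levels are counts per M (CPM) with totals scaled by trimmed mean of M-values (TMM) factors, and a gene is called when the likelihood ratio test of edgeR gives a Benjamini-Hochberg adjusted p under 0.05 over 17632 genes. Il22, the cytokine induced by IL-23, had 0 to 1 counts in WT libraries and 137 to 329 in KSR23 libraries, which separates the groups as labelled. Il12b had 0 to 5 counts in WT and 9 to 40 in KSR23. Il23a had 1 to 14 counts in WT and 8 to 34 in KSR23, with overlap, and was not called (adjusted p = 0.27, edgeR). WT replicate 1 and KSR23 replicate 3 stood apart, because 687 of 9737 well-measured genes (7.06%) were at least 4-fold lower in both than in the other libraries of replicates 1 to 3, against 0 to 2 genes for the other pairs of 1 WT and 1 KSR23 library. Of the 10 genes, Fth1 alone was among these 687. Replicates 4 and 5 of each group were rarely the highest or lowest of their group (8.54% to 18.4% of genes, against 45.7% to 75.6% for replicates 1 to 3), so results are also given from replicates 1 to 3 alone. No label ties a library to a named animal, and the p-values measure the spread between these libraries.

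Cybrd1 was lower in KSR23 jejunum, and Heph and Tfrc were higher. Thus 3 of the 9 genes that passed the filter were called (33.3%), beside 18.5% of all genes tested, of which 9.73% were called higher and 8.76% called lower. For those 3 genes the CPM ranges of the groups did not overlap, as for 14.4% of all genes (7.41% with KSR23 above and 6.99% with KSR23 below). The same 3 genes were called with the quasi-likelihood F test of edgeR, beside 15.4% of all genes (8.47% higher, 6.91% lower). Slc11a2, Slc40a1, Fth1, Ftl1, Hmox1 and Hamp were not called, and Hamp2 was removed by the filter, with at most 3 counts in any library. The median log2 fold change of the 9 genes was 0.55, but 0.07 over the 8 genes other than Hamp, whose fitted value rests on few counts, and that of all genes tested was 0.03. Without WT replicate 1 and KSR23 replicate 3 these calls were joined by Ftl1, which was then lower, where 19.5% of all genes were called (9.98% higher, 9.57% lower). From replicates 1 to 3 alone, 1 gene was called higher (Tfrc) and 1 lower (Cybrd1), beside 3.36% of all genes (2.01% higher, 1.35% lower). The quasi-likelihood F test on the same 6 libraries called 0 of the 9 genes, beside 0.812% of all genes, and 3 (Cybrd1, Heph and Tfrc) had an unadjusted p under 0.05.

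**Figure D1:**
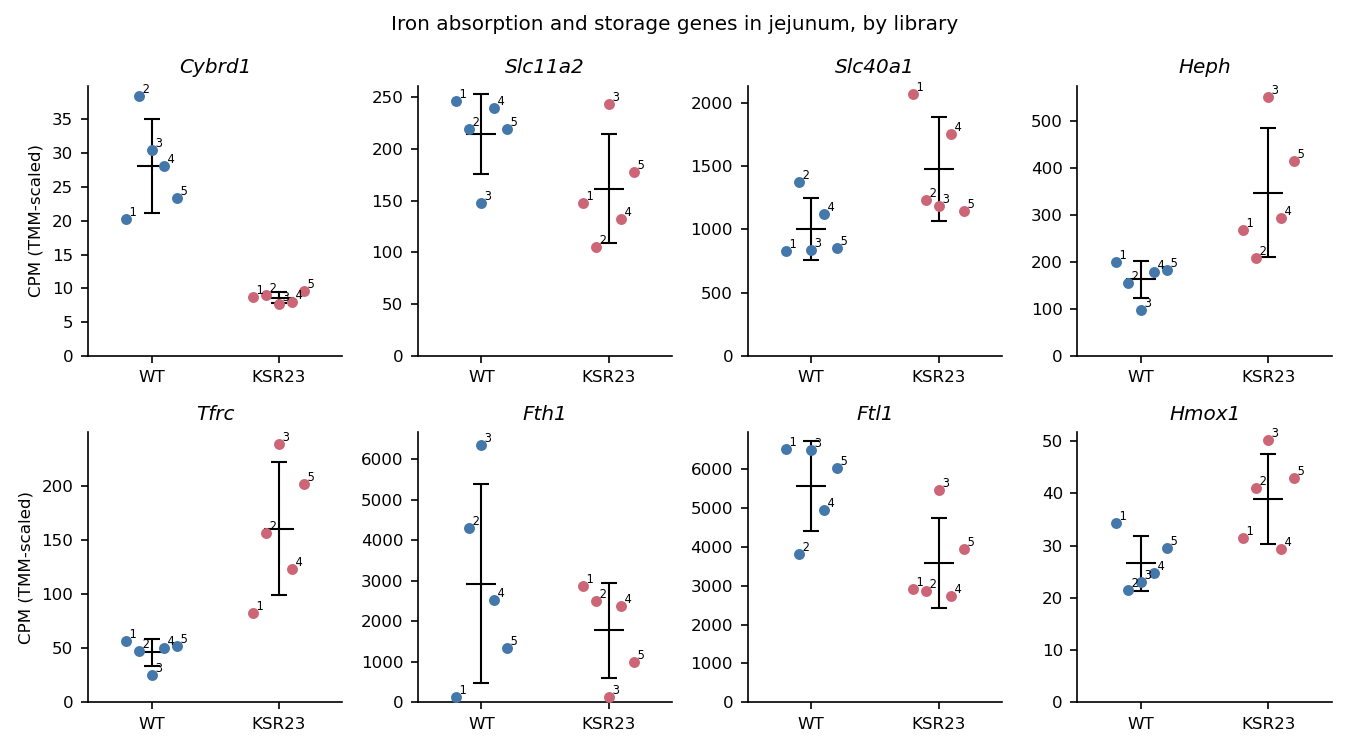
Level of 8 genes in each library, in TMM-scaled CPM on linear axes that start at 0, with WT in blue and KSR23 in red. Numbers are replicates, and the horizontal line and bars give the mean ± SD of 5 libraries. The groups do not overlap for Cybrd1, Heph and Tfrc, and Fth1 is near 0 in WT replicate 1 and KSR23 replicate 3.

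Cybrd1 (ENSMUSG00000027015, chromosome 2, 71117923 to 71142926, plus strand) encodes the duodenal cytochrome b reductase that turns ferric into ferrous iron at the brush border. Its levels in WT were 20.2, 38.4, 30.4, 28.1 and 23.4 CPM in replicates 1 to 5. In KSR23 they were 8.70, 9, 7.67, 7.97 and 9.65 CPM. Every KSR23 library lay below every WT library, and the KSR23 libraries were close to one another, with a coefficient of variation of 9.26% against 24.9% in WT. The WT mean was 28.1 ± 7.01 CPM and the KSR23 mean 8.60 ± 0.797 CPM (SD, n = 5 each), 3.27-fold lower in KSR23 in the fitted model. On the log2 scale the change was -1.71 with a standard error (SE) of 0.28 (adjusted p = 1.75e-07, edgeR; 0.000421 with the F test). Without WT replicate 1 and KSR23 replicate 3 the log2 fold change was -1.77 (adjusted p = 1.34e-07, edgeR). From replicates 1 to 3 alone it was -1.78 (adjusted p = 0.0413, edgeR; 0.135 with the F test).

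Slc11a2 (ENSMUSG00000023030, chromosome 15, 100387898 to 100425072, minus strand) encodes the divalent metal transporter that carries ferrous iron into the cell. WT replicates 1 to 5 were at 245.7, 219.5, 148.0, 238.9 and 219.5 CPM. KSR23 replicates were at 148.1, 105.1, 242.8, 132.5 and 177.9 CPM. The groups overlapped, with WT replicate 3 lower than the other WT libraries and KSR23 replicate 3 higher than the other KSR23 libraries. For Slc11a2 the log2 fold change was -0.41, with a 95% interval from -0.97 to 0.15 and an adjusted p of 0.352 (edgeR). The interval holds both lower and unchanged levels of the importer. On the other strand Slc11a2 overlaps Gm5475, which had at most 57 counts in any library.

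Hephaestin and ferroportin act together at the basolateral side, where hephaestin oxidises the iron that ferroportin exports. Heph (ENSMUSG00000031209, chromosome X, 96455359 to 96574485, plus strand) was at 200.1, 155.4, 98.4, 179.3 and 183.4 CPM in WT. It was at 268.2, 208.8, 552.7, 293.3 and 416.2 CPM in KSR23. The lowest KSR23 library lay just above the highest WT library. The means were 163.3 ± 39.6 CPM for WT and 347.8 ± 137.2 CPM for KSR23 (SD, n = 5 each), 2.13-fold higher in KSR23. On the log2 scale this was a rise of 1.09 (SE 0.32, adjusted p = 0.00764, edgeR; 0.0251 with the F test). Without WT replicate 1 and KSR23 replicate 3 it was 0.94 (adjusted p = 0.0174, edgeR), and from replicates 1 to 3 alone it was 1.22, no longer past the threshold (adjusted p = 0.308, edgeR). With replicate number as a further term in the fit (a replicate block) it was 1.03, also not called (adjusted p = 0.0727, edgeR).

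Slc40a1 (ENSMUSG00000025993, chromosome 1, 45908068 to 45926523, minus strand) was at 831.4, 1376.2, 833.6, 1119.4 and 851.8 CPM in WT. The KSR23 libraries were at 2066.4, 1232.5, 1187.5, 1749.6 and 1143.6 CPM. All 5 KSR23 libraries lay above 4 of the WT libraries, and the groups overlapped through WT replicate 2. Its log2 fold change was 0.56 (95% interval 0.01 to 1.10), with an unadjusted p of 0.045 that did not hold after adjustment (adjusted p = 0.155, edgeR). Leaving out 1 library at a time gave 0.46 to 0.75.

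**Figure D2:**
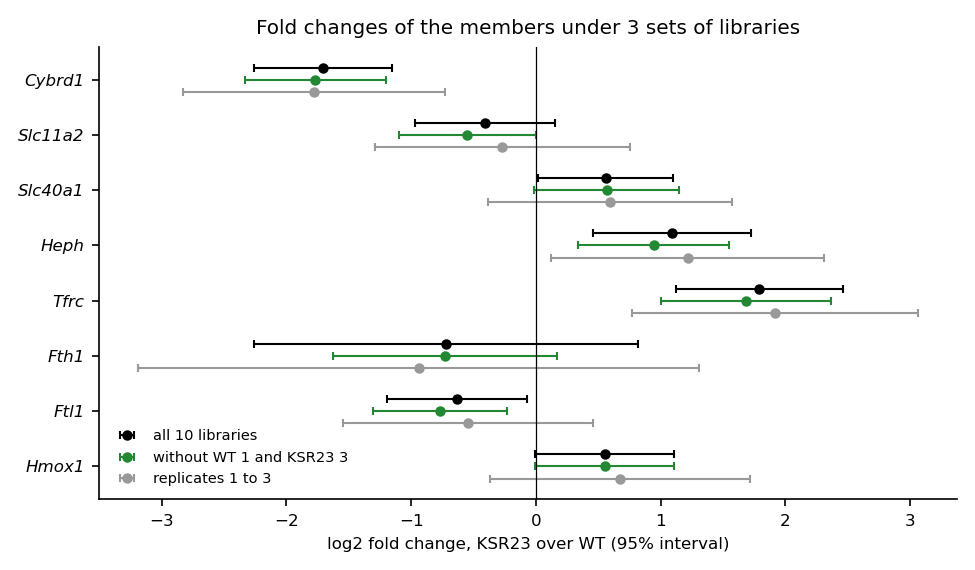
Log2 fold change of KSR23 over WT for 8 genes, with 95% intervals as bars, from all 10 libraries (black), without WT replicate 1 and KSR23 replicate 3 (green) and from replicates 1 to 3 alone (grey). Cybrd1 lies below 0 and Heph and Tfrc above 0 in all of these sets, and the interval of Fth1 spans 0 in each.

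Hepcidin messages were at the edge of detection in the jejunum. Hamp (ENSMUSG00000050440, chromosome 7, 30942368 to 30944032, minus strand) had 1, 3, 1, 0 and 2 counts in the WT libraries. It had 0, 5, 0, 5 and 8 counts in the KSR23 libraries. The adjusted p was 0.643 (edgeR), and no fold change is given because every WT library was at or under the floor of 3 counts, which is 0.0427 to 0.119 CPM across libraries. Hamp2 (ENSMUSG00000056978, chromosome 7, 30922372 to 30924681, minus strand) had 0, 3, 3, 2 and 0 counts in WT and 0 in each KSR23 library, so neither group rose above the floor of 3 counts. Without the filter the likelihood ratio test of edgeR called Hamp2 lower (adjusted p = 0.0224), on 8 counts over all WT libraries. At such counts neither gene can be read as present or absent in intestinal cells.

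The start regions of both hepcidin genes are shown because STAT3, which IL-22 and IL-6 activate, acts on the hepcidin promoter in liver. RefSeq start regions (GRCm38.p6) covered 6 of the 10 genes (Cybrd1, Hamp, Hamp2, Tfrc, Fth1 and Ftl1) and not Slc11a2, Slc40a1, Heph or Hmox1. Only a short stretch before each start was searched. Both hepcidin genes held the STAT palindrome TTCNNNGAA, which reads the same on both strands and occurs in 7.02% of the 32851 start regions searched. The palindrome is in capitals in each 69-base stretch, written 5′ to 3′ on the strand of the gene, and it begins 94 bases before the RefSeq start of Hamp2 and 97 before that of Hamp. GENCODE places the start of Hamp2 further upstream, so its stretch lies inside the gene span given above.
Hamp2, chr7:30924237-30924305, minus strand: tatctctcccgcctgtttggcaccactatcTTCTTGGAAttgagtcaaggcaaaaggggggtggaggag
Hamp, chr7:30944088-30944156, minus strand: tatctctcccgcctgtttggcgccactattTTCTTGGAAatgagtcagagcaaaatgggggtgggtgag

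The stretches matched at 61 of 69 positions, and these letters are a description and not a measured binding site. The hypoxia response core ACGTG, held by 16.6% of start regions on either strand, occurred among the covered genes in 1 start region of Tfrc. The antioxidant response core TGACNNNGC, held by 10.2%, occurred in none of the covered start regions, and Hmox1 was not among the covered genes.

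Tfrc (ENSMUSG00000022797, chromosome 16, 32608920 to 32632794, plus strand) encodes the transferrin receptor, which brings transferrin-bound iron from blood into dividing and iron-requiring cells. WT replicates 1 to 5 were at 57.1, 47.5, 25.2, 50.2 and 52.3 CPM. KSR23 replicates were at 82.6, 156.6, 238.7, 123.4 and 201.7 CPM. Every KSR23 library lay above every WT library. Means of 46.5 ± 12.4 CPM for WT and 160.6 ± 61.8 CPM for KSR23 (SD, n = 5 each) gave a 3.46-fold higher level in KSR23. The corresponding log2 fold change was 1.79 (SE 0.34, adjusted p = 1.14e-05, edgeR; 0.00282 with the F test). Without WT replicate 1 and KSR23 replicate 3 it was 1.69 (adjusted p = 5.58e-05, edgeR). From replicates 1 to 3 alone it was 1.92 (adjusted p = 0.0467, edgeR; 0.187 with the F test).

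In a whole-tissue sample, more cells of a type and more RNA per cell cannot be told apart. The marker counts below stand beside the 9.73% of all genes called higher and the 8.76% called lower. Beside Tfrc, 3 of 10 crypt and cycling markers were higher in KSR23 (Mki67, Top2a and Ccnb1) and none lower, while the summed level of that list was 725.0 to 947.3 CPM in WT and 734.4 to 1145.9 CPM in KSR23. Erythroid markers, for cells that carry much transferrin receptor, summed to 11.5 to 52.4 CPM in WT and 19.3 to 58.8 CPM in KSR23, with none called higher. Gata1 was called lower, on at most 27 counts in any library (adjusted p = 0.0448, edgeR; 0.124 with the F test). The 6 globin genes of that list were at 0 counts in all 10 libraries, although Alas2 was at 27 ± 15 CPM for WT and 34.6 ± 17.6 CPM for KSR23 (SD, n = 5 each), so they do not report on red cells here. Beside Cybrd1, 12 enterocyte markers summed to 96597 to 203393 CPM in WT and 62053 to 113937 CPM in KSR23, with 3 called lower (Fabp1, Fabp2 and Lct) and 2 higher (Sis and Krt20). The enterocyte sum is mostly Apoa4 and Apoa1, at 81611.2 and 21316.5 CPM in mean for WT, and neither was called (adjusted p = 0.161 and 0.567, edgeR). Vil1, Alpi, Apob, Epcam and Cdx2 were not called. Proximal small intestine markers, of the stretch where Cybrd1 is normally highest, summed to 7909.7 to 17910.9 CPM in WT and 3270.7 to 10796.4 CPM in KSR23, with 2 of 7 lower (Fabp1, and Cyp8b1 with at most 21 counts in any library). That sum is mostly Fabp1, at 13908.7 ± 4258.5 CPM for WT (SD, n = 5), which is also an enterocyte marker, and Gata4, Onecut2, Pdx1, Ghrl and Sct were not called. Distal markers summed to 171.6 to 246.3 CPM in WT and 203.7 to 283.1 CPM in KSR23. Of these, 2 of 7 were higher (Nt5e, and Slc10a2 with at most 42 counts in any library). The distal sum is mostly Slc51b, at 143.0 CPM for WT and 148.9 CPM for KSR23 in mean, which was not called. Osr2, Pyy, Fabp6 (log2 fold change 1.375) and Fgf15 (-1.808) were not called either. Pancreatic acinar markers summed to 100 to 211.6 CPM in WT and 6.61 to 17.8 CPM in KSR23, without overlap, with 6 of 7 measured genes lower (Ctrb1 among them), and 1 of 7 smooth muscle markers was lower (Acta2), their sum being 1617.6 to 3673.5 CPM in WT and 1687.8 to 2274.4 CPM in KSR23. The part of cell make-up and of the sampled stretch in the results for Cybrd1, Heph and Tfrc was not tested.

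Ferritin stores iron in a shell of heavy (Fth1) and light (Ftl1) chains. Ftl1 (ENSMUSG00000050708, chromosome 7, 45457944 to 45459884, minus strand) was at 6509.6, 3807.7, 6486.5, 4949.7 and 6021.0 CPM in WT. It was at 2920.7, 2850.6, 5465.5, 2723.8 and 3950.3 CPM in KSR23. KSR23 replicate 3 was the high library of its group, and the groups overlapped through it and KSR23 replicate 5. Light chain messages gave -0.63 on the log2 scale (SE 0.29), which was not called (adjusted p = 0.109, edgeR). It was -0.77 without WT replicate 1 and KSR23 replicate 3 (adjusted p = 0.0304, edgeR) and -0.84 without KSR23 replicate 3 alone (adjusted p = 0.0115, edgeR), and with all libraries it was called when scaled by library totals alone (-0.74, adjusted p = 0.0123, edgeR), so its call depended on that library and on the scaling. Of the 75-base stretches in the principal transcript of Ftl1, 84.8% also occurred in transcripts of other annotated genes, among them the near-identical copy Ftl1-ps1 and the overlapping Gm10252. Reads with more than 1 alignment entered no gene, so the Ftl1 level is uncertain in both groups.

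Fth1 (ENSMUSG00000024661, chromosome 19, 9980598 to 9985098, plus strand) varied more among libraries of one group than any other of the 8 genes above the floor. In WT it was at 136.8, 4301.4, 6352.5, 2516.6 and 1334.1 CPM. In KSR23 it was at 2865.9, 2510.6, 132.7, 2380.5 and 993.9 CPM. The lowest library of each group, WT replicate 1 and KSR23 replicate 3, are those that stood apart. The log2 fold change was -0.72 (SE 0.79, adjusted p = 0.589, edgeR), and without both libraries it was -0.73 (SE 0.46, adjusted p = 0.272, edgeR). A difference in the heavy chain was therefore not detectable against this spread.

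Heavy and light chains are made in proportions that differ between tissues, so the ratio of Fth1 to Ftl1 counts was taken in each library. It was 0.021, 1.13, 0.979, 0.508 and 0.222 in WT and 0.981, 0.881, 0.0243, 0.874 and 0.252 in KSR23. Within each group the ratio spanned nearly the whole range seen. The log2 ratio averaged -1.72 ± 2.35 for WT and -1.55 ± 2.28 for KSR23 (SD, n = 5 each), a difference of 0.16 (two-sided exact permutation p = 0.849, where the smallest p possible is 0.00794).

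**Figure D3:**
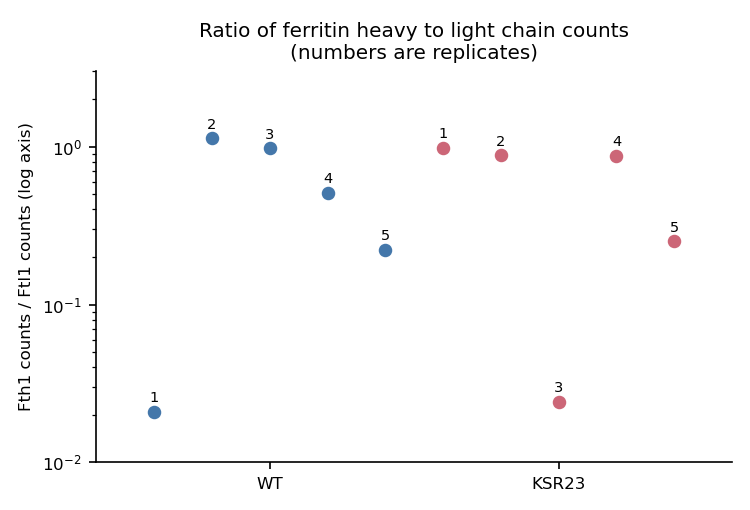
Ratio of Fth1 to Ftl1 counts in each library on a log axis, with WT in blue and KSR23 in red and numbers for replicates. WT replicate 1 and KSR23 replicate 3 lie at 0.021 and 0.0243, and the other libraries lie between 0.222 and 1.13.

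Hmox1 (ENSMUSG00000005413, chromosome 8, 75093621 to 75100589, plus strand) encodes heme oxygenase 1, which opens the heme ring and frees its iron. It was at 34.4, 21.5, 23.0, 24.8 and 29.5 CPM in WT. In KSR23 it was at 31.5, 41.0, 50.2, 29.3 and 43.0 CPM. The groups overlapped, with KSR23 replicates 2, 3 and 5 above every WT library. The log2 fold change was 0.55 (SE 0.28), which was not called (adjusted p = 0.175, edgeR).

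Levels were compared between genes per kb of the longest principal transcript. In WT the light chain Ftl1 was highest at 5738.5 ± 1202.0 CPM per kb, followed by Fth1 at 1960.0 ± 1643.5, Slc40a1 at 297.5 ± 71.8, Slc11a2 at 70.9 ± 12.8 and Heph at 34.4 ± 8.36 CPM per kb (SD, n = 5). Hmox1 at 17 ± 3.38, Tfrc at 9.50 ± 2.53 and Cybrd1 at 5.26 ± 1.31 CPM per kb came next, and the hepcidin genes Hamp2 and Hamp were at 0.125 and 0.121 CPM per kb. All 5 WT libraries held this order between neighbours from Ftl1 to Cybrd1, except that 4 of 5 did between Fth1 and Slc40a1 and between Tfrc and Cybrd1. In KSR23 the order changed below Slc40a1, with Heph at 73.3 ± 28.9, Slc11a2 at 53.3 ± 17.4, Tfrc at 32.8 ± 12.6, Hmox1 at 24.9 ± 5.47 and Cybrd1 at 1.61 ± 0.149 CPM per kb (SD, n = 5). All 5 KSR23 libraries held this order between neighbours from Ftl1 to Cybrd1, except that 4 of 5 did between Fth1 and Slc40a1 and between Tfrc and Hmox1. The poly(A)-primed libraries do not cover all transcripts evenly, so levels per kb are approximate.

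The wider iron pathway was described through 105 other genes, of which 100 passed the filter. KSR23 had 19 of them higher and 6 lower, 25% in all beside the 18.5% of all genes tested, with a median log2 fold change of 0.23. The counts of each list below stand beside the 9.73% of all genes called higher and the 8.76% called lower. Of the 105, 2 (Flvcr1 and Flvcr2) had no counts analysed here. From replicates 1 to 3 alone, 7 were higher (Steap1, Steap4, Ltf, Itln1, Hpx, Slc2a1 and Car9) and 0 lower (6 with an unadjusted p under 0.05, edgeR), beside 3.36% of all genes.

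**Figure D4:**
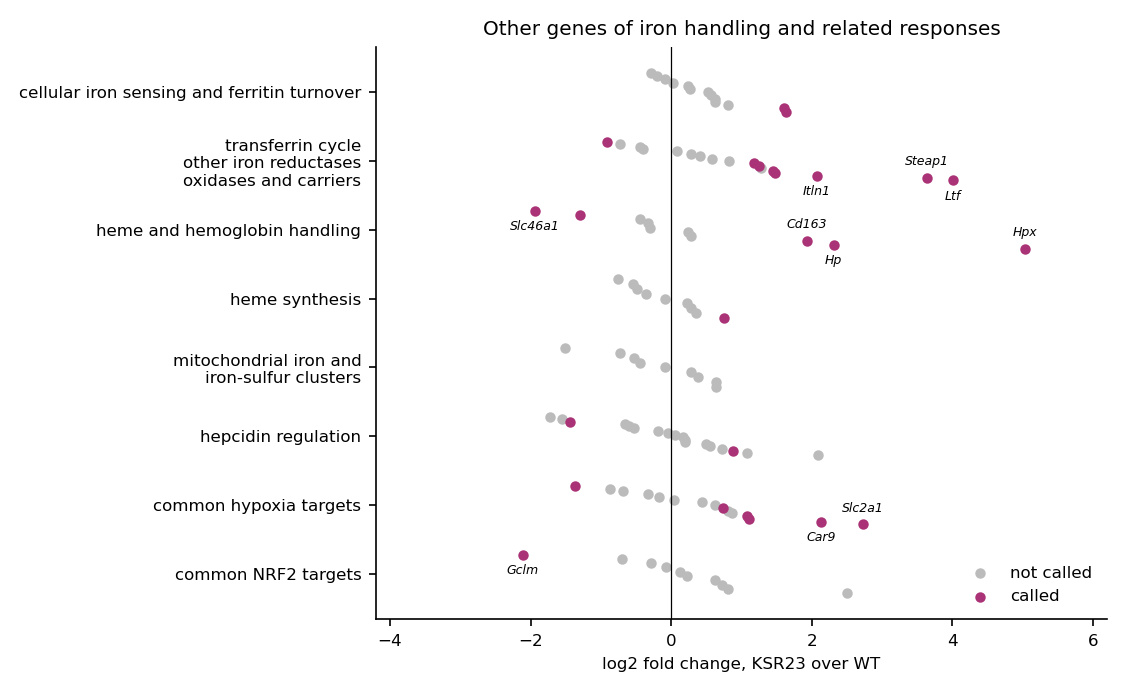
Log2 fold change of KSR23 over WT for the genes of 8 lists around iron handling, 1 point a gene, with genes called by the likelihood ratio test of edgeR in purple and others in grey. Genes called with changes beyond 1.9 in either direction are named, and the list of the transferrin cycle, reductases and carriers holds 7 genes called higher.

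Among 13 genes that sense iron or turn over ferritin, 2 were higher, 0 lower also by unadjusted p under 0.05 (edgeR), and 11 were not called. Fbxl5, the iron-sensing subunit of the ligase that degrades iron regulatory protein 2, rose from 82.3 ± 34.7 to 250.6 ± 96.8 CPM (SD, n = 5 each; log2 fold change 1.61, adjusted p = 0.000373, edgeR). Hif1a, a hypoxia factor, rose from 21.2 ± 7.35 to 66.1 ± 50 CPM (log2 fold change 1.64, adjusted p = 0.00895, edgeR). The groups overlapped for both, and neither was called from replicates 1 to 3 alone (adjusted p = 0.213 and 0.321, edgeR). The messages of the iron regulatory proteins Aco1 (log2 fold change 0.24, SE 0.27) and Ireb2 (0.62, SE 0.31), of the ferritin cargo receptor Ncoa4 (0.57, SE 0.30) and of Epas1 (-0.08, SE 0.27), the hypoxia factor that drives Cybrd1 and Slc11a2 in the duodenum, were not called.

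The list of the transferrin cycle, other reductases, oxidases and carriers had 7 of 17 genes higher and 1 lower, beside 9.73% and 8.76% of all genes tested. Steap1 rose from 2 ± 0.327 to 25.0 ± 9.79 CPM (SD, n = 5 each; log2 fold change 3.64, adjusted p = 6.91e-19, edgeR). The metalloreductases Steap2 and Steap4, of the same family, rose by 1.25 and 1.48 on the log2 scale (adjusted p = 0.00111 and 0.00256, edgeR), and Steap3, the endosomal ferrireductase of the transferrin cycle, was at 0.507 CPM or below in mean in either group and was not called.

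The same list holds genes of lactoferrin and siderophore binding. Ltf, encoding lactoferrin, went from 1.89 ± 0.397 to 30.5 ± 12.5 CPM (SD, n = 5 each; log2 fold change 4.01, adjusted p = 1.46e-19, edgeR). Itln1, the lactoferrin-binding lectin intelectin 1, went from 123.7 ± 25.6 to 521.3 ± 190.4 CPM (log2 fold change 2.08, adjusted p = 3.18e-09, edgeR), and Lcn2, which binds bacterial siderophores, rose by 1.45 on the log2 scale (adjusted p = 0.000792, edgeR). Ltf is also a neutrophil gene, and beside it 10 neutrophil markers, Ltf included, summed to 28.1 to 36.3 CPM in WT and 22.9 to 62.8 CPM in KSR23. In KSR23 that sum is mostly Ltf itself. Elane (at most 7 counts in any library) and Ltf were higher. Retnlg, from 15 to 2.18 CPM in mean, and Ngp, from 5.83 to 1.04 CPM, were lower. S100a8, S100a9, Mpo, Camp, Cxcr2 and Csf3r were not called. The part of neutrophils in the rise of Ltf was not tested.

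Atp7a, a copper exporter whose cargo metal hephaestin needs, rose from 24.3 ± 5.71 to 55.0 ± 10.2 CPM with no overlap (SD, n = 5 each; log2 fold change 1.18, adjusted p = 0.000811, edgeR). Hfe, the hemochromatosis gene, was the 1 lower member of the list, at 30.5 ± 3.35 CPM in WT and 16.2 ± 5.83 CPM in KSR23 (log2 fold change -0.91, adjusted p = 0.0225, edgeR). The call for Hfe was lost in 7 of the 10 fits that left out 1 library (adjusted p up to 0.105, edgeR). Trf, Tfr2, Cp and Slc39a14 were not called, with log2 fold changes of -0.39, 1.28, 0.59 and 0.08. The sign for Slc39a14 turned with scaling to library totals alone.

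Of 10 measured genes of heme and hemoglobin handling, 3 were higher and 2 lower. Slc46a1, the folate transporter first described as a heme carrier, fell from 132.0 ± 37.5 to 34.5 ± 14.6 CPM with no overlap (SD, n = 5 each; log2 fold change -1.94, adjusted p = 4.17e-06, edgeR), and Blvrb, a biliverdin reductase downstream of heme oxygenase, was lower by a log2 fold change of -1.30 (adjusted p = 0.00682, edgeR). Hpx, the plasma heme binder hemopexin, rose from 0.527 ± 0.194 to 17.3 ± 11.5 CPM (log2 fold change 5.03, adjusted p = 9.53e-10, edgeR), and Hp, haptoglobin, from 0.756 ± 0.387 to 3.77 ± 2.39 CPM (log2 fold change 2.31, adjusted p = 0.00117, edgeR). Cd163, the macrophage receptor for haptoglobin bound to hemoglobin, rose by 1.93 on the log2 scale (adjusted p = 0.000478, edgeR).

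Hpx and Hp are liver genes in the adult, and 12 hepatocyte markers summed to 1123.7 to 1878.7 CPM in WT and 326.5 to 1500.2 CPM in KSR23, with 5 lower (Alb among them) and 2 higher (Fga and Fgb). That sum is in KSR23 mostly Cps1, at 908.6 CPM in mean, which enterocytes also express and which was not called. Beside Cd163, 12 macrophage markers, Cd163 included, summed to 778.8 to 962.8 CPM in WT and 564.7 to 725.3 CPM in KSR23, with Cd68, C1qb, C1qc and Timd4 lower. The part of hepatocytes and macrophages in the rise of Hpx, Hp and Cd163 was not tested.

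In heme synthesis 1 of 9 genes was called, Alas1, the first enzyme of the pathway outside red cells, at 112.7 ± 14.9 CPM for WT and 189.4 ± 59.3 CPM for KSR23 (SD, n = 5 each; log2 fold change 0.75, adjusted p = 0.0496, edgeR). The call did not hold with the F test (adjusted p = 0.057, edgeR) or in 8 of the 10 fits that left out 1 library. Without WT replicate 1 and KSR23 replicate 3, Urod was called lower instead (log2 fold change -0.93, adjusted p = 0.00681, edgeR). None of 9 measured genes of mitochondrial iron and iron-sulfur clusters was called by the likelihood ratio test, 3 having an unadjusted p under 0.05 (edgeR). The F test called 1, and without WT replicate 1 and KSR23 replicate 3 the likelihood ratio test called Isca2 lower (log2 fold change -0.85, adjusted p = 0.0197, edgeR). Alas2, the red cell form with an iron-responsive element, was not called (log2 fold change 0.36, SE 0.48).

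Of 18 genes that regulate hepcidin, 1 was higher and 1 lower. Smad4, the common partner in bone morphogenetic protein signalling, rose from 13 ± 2.38 to 23.8 ± 5.31 CPM (SD, n = 5 each; log2 fold change 0.87, adjusted p = 0.0175, edgeR), a call lost in 4 of the 10 fits that left out 1 library. Smad7, the inhibitor in the same pathway, fell from 5.52 ± 1.97 to 2.02 ± 0.602 CPM (log2 fold change -1.44, adjusted p = 0.000961, edgeR). Stat3 was at 94.3 ± 46.8 CPM in WT and 198.5 ± 92.5 CPM in KSR23 and was not called (adjusted p = 0.0887, edgeR), though it was called without WT replicate 1 and KSR23 replicate 3 (adjusted p = 0.0112, edgeR). Bmp6 and Il6 had few counts (0 to 18 and 0 to 69 per library) and were not called.

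Genes that share regulators with Cybrd1, Tfrc or Hmox1 were also counted. Among 15 common hypoxia targets 5 were higher and 1 lower, beside 9.73% and 8.76% of all genes tested. The other 9 were not called, among them Bnip3 and Edn1 (log2 fold changes -0.678 and -0.875) and Ndrg1 and Pdk1 (0.865 and 0.802). Slc2a1, the glucose transporter GLUT1, rose from 11.8 ± 2.28 to 78.1 ± 26.7 CPM (SD, n = 5 each; log2 fold change 2.73, adjusted p = 1.27e-13, edgeR). Car9 also rose (adjusted p = 2.04e-08, edgeR), as did Pgk1, Ldha and Aldoa (adjusted p = 0.00673, 0.00461 and 0.0406, edgeR). The calls of Pgk1, Ldha and Aldoa were lost with a replicate block. Ankrd37 fell by 1.37 on the log2 scale. Among 10 common targets of NRF2, the factor that induces Hmox1 and ferritin, 1 was lower (Gclm, log2 fold change -2.11, adjusted p = 8.03e-06, edgeR) and none higher, 2 having higher levels at an unadjusted p under 0.05.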

How the data were processed

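Jejunum RNA of 10 libraries was primed with oligo-dT, amplified by PCR without molecular identifiers and sequenced as single 75-base reads, and the floors given describe counting error alone. Per the labels and methods, the authors mapped reads to mm10 with TopHat2 2.1.0 and counted reads lying strictly within gene models with HTSeq 0.6.1p1. The deposited counts were whole numbers for 24062 symbols and were not normalized. The strand setting is not given in the sources used here, so reads of genes on opposite strands cannot be told apart. The counter's totals outside genes (27.9% to 35.2% of all reads) entered no test, and reads with more than 1 alignment (20.3% to 26.5%) were in no gene.

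The 17632 genes that reached 5 counts in any library were fitted in edgeR 4.0.16 (R 4.3.3), TMM-scaled, with group as the only term and the likelihood ratio test. The study used edgeR with a minimum of 5 counts, and its wording of that filter allows both readings tried here. Intervals are 95% intervals from the fitted SE, which includes the spread between libraries. The scripts were tested on simulated data. The fits were repeated with the quasi-likelihood F test, DESeq2 1.42.0, relative log expression (RLE) or library-total scaling, no filter or 5 or more counts in every library (13181 genes), replicates 1 to 3 alone, a replicate block, and each library left out. Leaving out WT replicate 1 and KSR23 replicate 3 together was chosen after seeing the data. The 10 genes and all lists were chosen with earlier results of these data known. The text names all 10 genes, a core set of pathway genes, and the called genes with the largest changes of each list. A result for 1 gene of the mitochondrial list is not reported here.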

Additional observations from a re-analysis of the deposited data

Results flagged for a closer look

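In 5 of the 111 groups of 5 libraries examined, 1 library lay far from the other 4, by a gap of more than 0.71 of the range of the group, and chance flags about 1 in 20 such groups. All 5 were WT replicate 3, at the low end, in log2 CPM. Slc11a2 was at 7.21 there against 7.78 in the next library, and Tfrc was at 4.66 against 5.57. Aco1 was at 6.72 against 7.29, Epas1 at 2.96 against 3.59, and Slc2a1 at 2.98 against 3.61. Without WT replicate 3, Tfrc was still called higher in KSR23.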

How the results depend on the processing

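The 17632 genes tested gave 3261 calls, and leaving out 1 library at a time gave 2370 to 3802. Replicates 1 to 3 alone gave 579 with the likelihood ratio test of edgeR and 140 with its F test. Of the 10 genes, 2 were called higher and 1 lower. Those replicates alone gave 1 higher by the first test and 0 higher and 0 lower by the second. Those called lower were 2 with library totals alone, with no filter and without both WT replicate 1 and KSR23 replicate 3, and 1 to 2 with 1 library left out. The gene added was Hamp2 with no filter and Ftl1 otherwise. With 1 library left out, Cybrd1 ranged over log2 fold changes of -1.81 to -1.52, Heph over 0.861 to 1.277 and Tfrc over 1.602 to 2.004, and each stayed called.

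Deviations of same-numbered libraries correlated at -0.548 to 0.248, 3 of 5 pairs being above 0, and 0 of 5 WT libraries correlated best with their own number, so the numbers were not taken as pairs. A replicate block gave 2202 calls (12.5% of genes) and 1 of the 10 genes higher, the call of Heph being lost (adjusted p = 0.0727, edgeR). It left 13 pathway genes higher and 4 lower, the calls of Hif1a, Hfe, Alas1, Blvrb, Smad4, Pgk1, Ldha and Aldoa being lost.

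Pathway genes called higher were 19, against 7 and 3 from replicates 1 to 3 by these tests of edgeR, and 16 to 23 with 1 library left out. Those lower were 6, against 10 with DESeq2, 10 with 5 or more counts in every library and 0 and 0 from replicates 1 to 3, and 5 to 10 with 1 library left out, the highest without KSR23 replicate 3. The difference in the log2 Fth1 to Ftl1 ratio turned from 0.16 to -0.049 in replicates 1 to 3 and ranged from -0.801 (without WT replicate 1) to 1.116 (without KSR23 replicate 3). Near 0, the log2 fold change of Epas1 turned to 0.076 in replicates 1 to 3 and ranged from -0.197 to 0.052 with 1 library left out, and that of Slc39a14 turned to -0.044 with library totals, -0.001 in replicates 1 to 3 and -0.021 without both libraries, and ranged from -0.046 to 0.251 with 1 library left out. The cause was not tested. At totals of 25.5 to 60.9 M, Hamp and Hamp2 had at most 8 counts per library.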
